A study of Danio rerio with 12 samples.

Results

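The genes smn1, gemin5 and gemin8 encode subunits of the SMN complex, which loads Sm proteins onto small nuclear RNAs (snRNAs). They were picked by gene symbol, 3 of the 13979 genes with an entry in any deposited skipped-exon table, and they were picked with earlier results of these data in view. The data come from ribosomal-RNA-depleted stranded sequencing of total RNA from whole zebrafish embryos, made to follow up mutants found in screens for T lymphocyte development. There are 3 libraries of each genotype: snapc3-/- (a subunit of the complex that drives snRNA gene transcription), lsm8-/- (a subunit of the LSm ring on U6 snRNA), tnpo3-/- (an import receptor for SR splicing proteins) and wild type (wt) as control. All snapc3 mutants carry mixed background A, all lsm8 mutants background B and all tnpo3 mutants background C, whereas the controls have 1 library of each background. The tables do not say which control value belongs to which background, so background could not be fitted and its part in the mutant differences was not tested. Age, the kind of mutation and any pooling of embryos are not stated in the labels, so the p-values below measure only the spread between these libraries. The same 3 control libraries serve in all comparisons. In these bulk embryos, fewer cells of a type and less RNA per cell cannot be told apart.

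In the cytoplasm, the SMN complex holds a ring of Sm proteins and closes it around the Sm site of each newly exported snRNA. The survival motor neuron protein, encoded by smn1, is the core of the complex, and loss of its human counterpart causes spinal muscular atrophy. Gemin5 recognises the snRNA, and Gemin8 links the SMN protein to the Gemin6 and Gemin7 pair. After assembly, the cap of the snRNA is hypermethylated and the particle is imported into the nucleus, where it passes through Cajal bodies.

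The deposited skipped-exon tables hold 15 entries for these genes, 5 for snapc3, 4 for lsm8 and 6 for tnpo3, which cover 8 distinct exons. Of these exons, 3 are in smn1, 3 in gemin5 and 2 in gemin8. Every entry passed the filter on low counts, which asked for 10 or more reads per library on average. Mean inclusion was lower in the mutants in 14 entries and higher in 1. All smn1 entries and the gemin5 exons of 182 and 163 bp had no skipping read in controls. Each listed exon had at least 1 skipping read, so a lower mutant mean was fixed in advance for these. Such exons made up 44.9%, 45.1% and 53.8% of those listed for snapc3, lsm8 and tnpo3 mutants. The share of all exons with a lower mean was not counted, so no result is read from this direction. Inclusion is the share of inclusion reads at the junctions of an entry, after each read count is divided by its deposited form length. An exon was called at a limma adjusted p below 0.05 with a difference of at least 10 percentage points in mean inclusion. By this rule 4 entries were called, all with lower inclusion: 1 in snapc3 mutants, 1 in lsm8 mutants and 2 in tnpo3 mutants. Across the whole of these tables, 0.65%, 1.06% and 2.07% of tested exons were called lower in snapc3, lsm8 and tnpo3 mutants. The called exons are why gemin5 and gemin8 were singled out, so their values in those comparisons are a description and carry no p. None of the 3 genes is listed in the authors' deposited gene tables, which hold only genes past thresholds of fold change and adjusted p, and none has an entry in the retained-intron tables.

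The gemin5 exon of 137 bp was skipped in lsm8 and tnpo3 mutants and in neither the snapc3 mutants nor, beyond single reads, the controls. This exon of gemin5 (ENSDARG00000079257) lies at chr21:35733028-35733164 on the plus strand of genome build Zv9, between introns of 360 and 424 bp. Reads that joined the neighbouring exons and left it out numbered 13, 8 and 10 in the lsm8 mutant libraries, 6, 7 and 5 in the tnpo3 mutant libraries, 0 in each snapc3 mutant library and 1, 1 and 0 in the control libraries. Reads that joined the exon itself numbered 64, 67 and 80 in lsm8 mutants, 105, 75 and 86 in tnpo3 mutants, 127, 73 and 81 in snapc3 mutants and 112, 117 and 120 in controls. Every lsm8 and every tnpo3 mutant library therefore held more skipping reads than any control library.

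Skipping of this exon, at 100% minus inclusion, was 28.9%, 19.3% and 20% in the lsm8 mutant libraries. In the tnpo3 mutant libraries it was 10.3%, 15.7% and 10.4%, and in the control libraries 1.75%, 1.68% and 0%. The lsm8 mutants stood highest, the tnpo3 mutants between, and the ranges of these groups and the controls did not overlap. All mutant libraries lay below all control libraries in inclusion for 7.97% of tested exons in lsm8 mutants and 10.3% in tnpo3 mutants. Mean inclusion was 77.3% ± 5.35 in lsm8 mutants and 87.9% ± 3.12 in tnpo3 mutants, against 98.9% ± 0.992 in controls (SD, n = 3 each). The difference from control was -21.6 points (SE 3.14) in lsm8 mutants and -11.0 points (SE 1.89) in tnpo3 mutants. Of the exons called lower, 96 of 239 in lsm8 mutants and 513 of 560 in tnpo3 mutants fell by more, which puts the tnpo3 value just inside the threshold of 10 points. The lsm8 call was lost without the lsm8 mutant library in position 1 (difference -18.5 points), which had the highest skipping. The tnpo3 call was lost without any 1 of the tnpo3 mutant libraries or without the control library in position 2 or 3, with differences of -11.9 to -9.19 points.

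In snapc3 mutants the gemin5 exon showed no skipping read in any library, which allows skipping of up to 4.51%, 7.59% and 6.90% in the libraries (3 reads taken as the limit for a count of 0). Mean inclusion was 100% in snapc3 mutants and 98.9% ± 0.992 in controls, a difference of 1.15 points (SE 0.573) that did not pass the test (limma adjusted p = 0.729). Inclusion in lsm8 mutants was 22.7 points lower than in snapc3 mutants on average (difference -22.7, SE 3.09), and in tnpo3 mutants 12.1 points lower than in snapc3 mutants (difference -12.1, SE 1.80). All lsm8 mutant libraries lay below all snapc3 mutant libraries, as did 7.17% of the 14333 exons compared, and all tnpo3 mutant libraries lay below all snapc3 mutant libraries, as did 10.2% of 14855. Between lsm8 and tnpo3 mutants the difference was -10.6 points (SE 3.58), with all lsm8 mutant libraries below all tnpo3 mutant libraries, as for 6.81% of 14722 exons. These mutant pairs include the comparisons that brought gemin5 in, so no p is given.

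**Figure D1:**
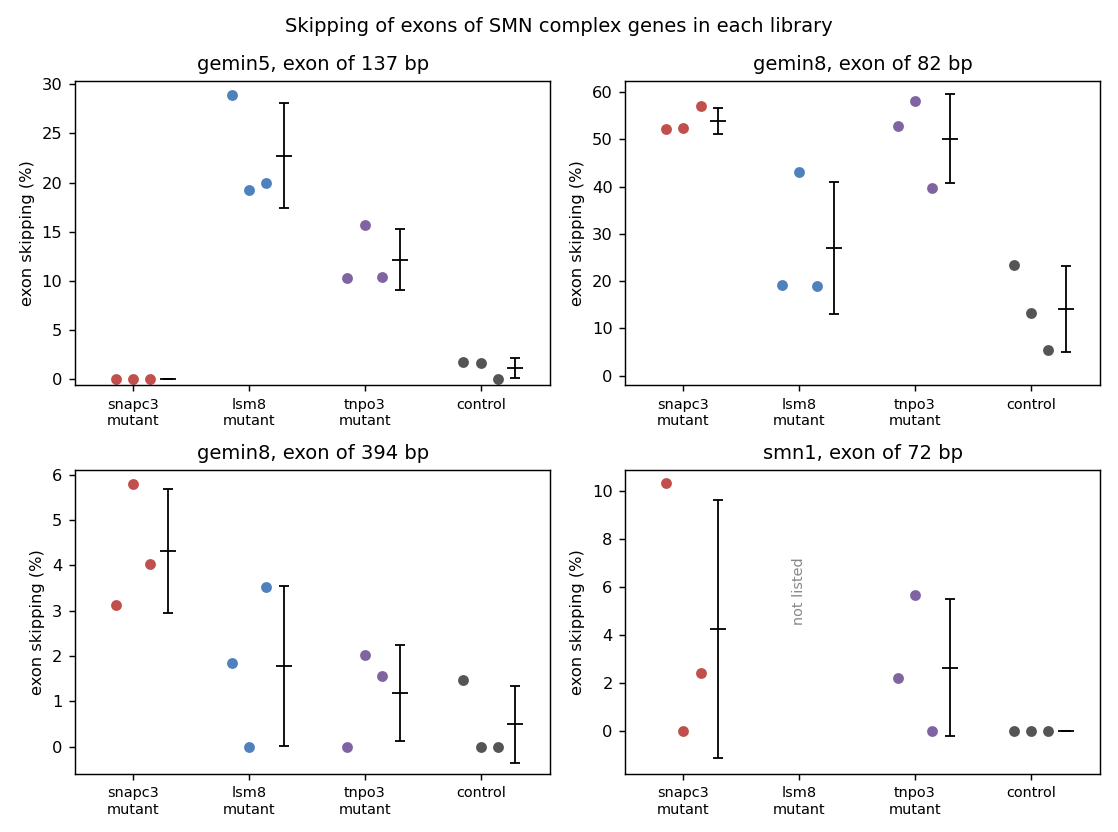
Skipping of 4 exons of SMN complex genes, in percent, in each library (points) of the snapc3, lsm8 and tnpo3 mutants and the controls; bars show the mean and SD of 3 libraries, and each panel has its own axis. The gemin5 exon of 137 bp was skipped at 10.3% or more in every lsm8 and tnpo3 mutant library and at 0% in every snapc3 mutant library, whereas the gemin8 exon of 82 bp was skipped most in snapc3 and tnpo3 mutants.

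A pair of further gemin5 exons appears in the tnpo3 table alone, and neither was called. The exon of 182 bp at chr21:35720745-35720926 had 0, 2 and 5 skipping reads beside 91, 80 and 108 inclusion reads in tnpo3 mutants, against 0 skipping reads beside 110, 119 and 139 inclusion reads in controls. The exon of 163 bp at chr21:35753905-35754067 had 0, 0 and 2 skipping reads beside 153, 99 and 82 inclusion reads in tnpo3 mutants, against 0 skipping reads beside 113, 99 and 129 inclusion reads in controls. Each of these exons had at least 1 tnpo3 mutant library with no skipping read, so the groups overlapped. Mean inclusion differed from control by -4.41 points (SE 2.45) for the 182 bp exon and -1.55 points (SE 1.55) for the 163 bp exon. Every listed exon had at least 1 skipping and 1 inclusion read over its 6 libraries, and an exon absent from a table was not analysed for that mutant.

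For gemin8 the strongest skipping was in the snapc3 and tnpo3 mutants. Its exon of 82 bp (gene ENSDARG00000053496) lies at chr1:27991654-27991735 on the minus strand, next to a short exon of 34 bp on its 5′ side, at chr1:27991864-27991897, and before a distal exon at chr1:27989300-27989702. Skipping reads numbered 22, 14 and 23 in snapc3 mutants, 17, 12 and 10 in tnpo3 mutants, 3, 8 and 5 in lsm8 mutants and 4, 3 and 1 in controls. Inclusion reads numbered 65, 41 and 56 in snapc3 mutants, 49, 28 and 49 in tnpo3 mutants, 41, 34 and 69 in lsm8 mutants and 42, 63 and 56 in controls. In every snapc3 and tnpo3 mutant library the skipping reads outnumbered those of any control library. Inclusion in these libraries lay below that of all control libraries. The same held for 6.28% of 22314 tested exons in snapc3 mutants and 10.3% of 27050 in tnpo3 mutants.

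Mean inclusion of the 82 bp exon was 46.2% ± 2.71 in snapc3 mutants, 49.8% ± 9.44 in tnpo3 mutants and 73.0% ± 13.9 in lsm8 mutants, against 85.9% ± 9.05 in controls (SD, n = 3 each). Inclusion reads of this exon came mostly from its junction with the 34 bp exon. At most 9 reads in a library joined it to the distal exon. The form length counts both junctions, so these values understate inclusion and are not shares of transcripts. The difference from control was -39.8 points (SE 5.45) in snapc3 mutants and -36.1 points (SE 7.55) in tnpo3 mutants, and both were called. Of the exons called lower, 26 of 145 in snapc3 mutants and 66 of 560 in tnpo3 mutants fell by more. In lsm8 mutants the difference was -13.0 points (SE 9.59), the libraries overlapped the controls, and the exon did not pass the test (limma adjusted p = 0.438). Without the lsm8 mutant library in position 2 the difference was -4.93 points. That library had 43.1% skipping and the other lsm8 mutant libraries 19.1% and 18.9%, against 23.5%, 13.3% and 5.44% in controls. The snapc3 call was lost without the snapc3 mutant library in position 3 (difference -38.2 points), and the tnpo3 call without the tnpo3 mutant library in position 1 or 2 or the control library in position 3 (differences of -34.8 to -31.8 points). Both were also lost when exons with fewer reads were let into the test.

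Between mutants, inclusion of the 82 bp exon was lower in snapc3 than in lsm8 mutants by 26.8 points (difference -26.8, SE 8.19), with all snapc3 mutant libraries below all lsm8 mutant libraries, as for 5.82% of the 14333 exons compared. Inclusion in tnpo3 mutants differed from that in lsm8 mutants by -23.1 points (SE 9.71), with overlapping libraries. Inclusion in tnpo3 and snapc3 mutants differed by 3.69 points (SE 5.67), also with overlapping libraries. By mean, the order of skipping among the mutants thus differed between the genes, with lsm8 mutants highest for the gemin5 exon and lowest for the gemin8 exon. Both genes were picked for these exons, so this order is a description.

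The next gemin8 exon, of 394 bp at chr1:27991107-27991500, had few skipping reads in its own entry. That entry does not count the reads that join the 34 bp exon straight to the distal exon, which also leave this exon out. Its inclusion values therefore cover only the junctions of the entry and are not shares of all transcripts. It had 6, 9 and 6 skipping reads beside 372, 292 and 286 inclusion reads in snapc3 mutants. The lsm8 mutants had 2, 0 and 6 skipping reads beside 214, 273 and 328 inclusion reads. In tnpo3 mutants there were 0, 3 and 2 beside 285, 290 and 254, and in controls 2, 0 and 0 beside 269, 310 and 309. Mean inclusion was 95.7% ± 1.36 in snapc3 mutants, 98.2% ± 1.77 in lsm8 mutants and 98.8% ± 1.06 in tnpo3 mutants, against 99.5% ± 0.846 in controls (SD, n = 3 each). The snapc3 mutant libraries lay below all control libraries, as did 6.28% of the 22314 exons tested. The difference of -3.83 points (SE 0.927) is under the 10 points a call needs, and the exon was not called. The snapc3 comparison is among those that brought gemin8 in, so no p is given for it. The snapc3 mutant libraries also lay below all tnpo3 mutant libraries, as did 5.69% of 14855 exons, with a difference of -3.13 points (SE 0.998). The lsm8 difference of -1.30 points (SE 1.13) did not pass the test (limma adjusted p = 0.487).

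The gemin8 entries share a junction, which lets some of the reads be sorted into the paths they follow. Reads that touch the 394 bp exon are not part of this sorting, and in every library they outnumbered the sorted reads. In the entry of the 394 bp exon, the exon on its 5′ side is 242 bp long, spans the 82 bp exon and ends at the same base. It also covers the 128 bp intron beside the 82 bp exon and reaches into the 34 bp exon. A transcript with this longer exon has no junction from the 34 bp exon to the 82 bp exon, so the share below leaves it out. Reads that leave the shared end of the 82 and 242 bp exons cannot be assigned to either form. The share of transcripts with the longer exon was not determined. A sorted read joins the 34 bp exon to the 82 bp exon, joins the shared end to the distal exon and so leaves out the 394 bp exon, or joins the 34 bp exon straight to the distal exon, 2161 bp away, and leaves out both. Leaving out both removes 476 bp. Reads of this last kind were counted as a share of all reads that leave the 34 bp exon for either target, a measure that needs no form length and was chosen once the values were known. The share was 27.2%, 30.4% and 31.5% in snapc3 mutants, 25.8%, 32.4% and 17.5% in tnpo3 mutants, 7.14%, 19.0% and 7.35% in lsm8 mutants and 9.09%, 4.55% and 1.75% in controls. Every snapc3 and tnpo3 mutant library lay above every control library, whereas the lsm8 mutants overlapped the controls. How many other exons separate in this measure was not counted, so nothing particular to gemin8 is read from it.

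Summed over libraries, the long junction held 59 of 200 such reads in snapc3 mutants, 39 of 160 in tnpo3 mutants, 16 of 152 in lsm8 mutants and 8 of 167 in controls. The mean share was 29.7% ± 2.26 in snapc3 mutants, 25.2% ± 7.46 in tnpo3 mutants and 11.2% ± 6.81 in lsm8 mutants, against 5.13% ± 3.70 in controls (SD, n = 3 each). The differences from control were 24.6 points (SE 2.51), 20.1 points (SE 4.81) and 6.05 points (SE 4.48). They are on another scale than the differences in inclusion, for which the deposited form lengths weigh 1 skipping read of this exon as 3.22 inclusion reads, against 2 for the other exons of these genes. At these read numbers a single library is imprecise: exact 95% intervals ran from 17.9% to 38.2% in the snapc3 mutant library in position 1 and from 2.53% to 21.7% in the control library in position 1, and they cover counting error only.

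**Figure D2:**
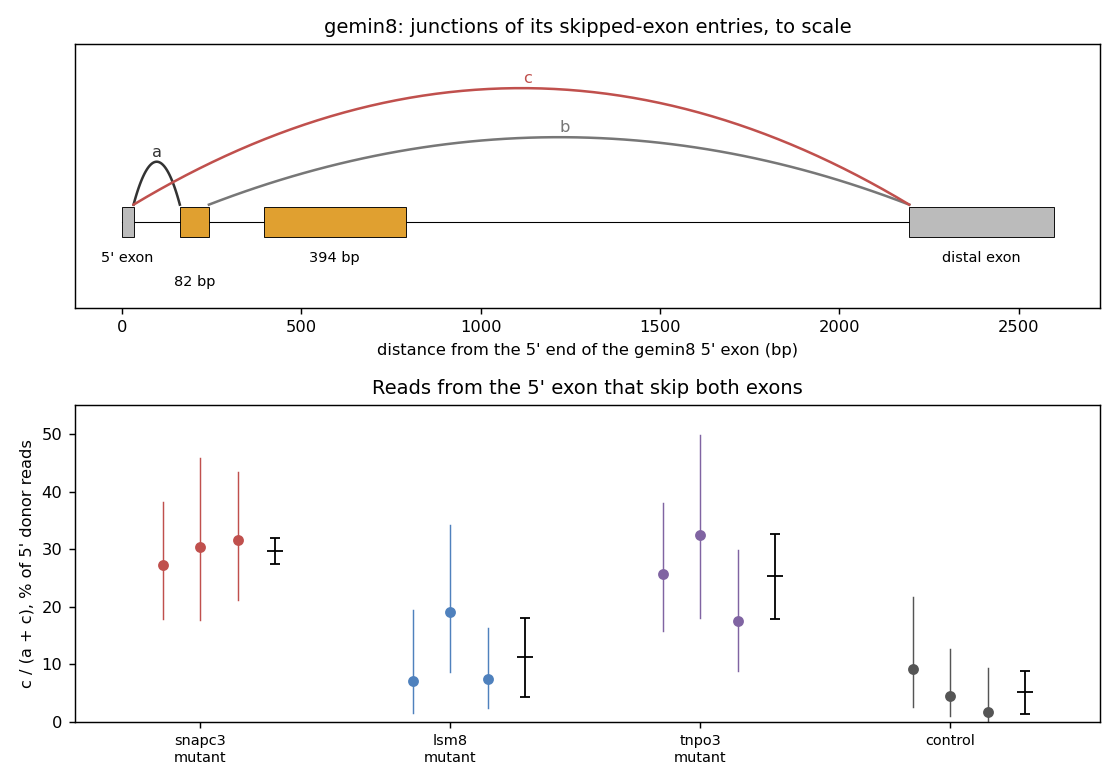
The upper panel maps the gemin8 exons to scale, with distance in bp from the 5′ end of the 34 bp exon and arcs for the junctions from the 34 bp exon to the 82 bp exon (a), from the 82 bp exon to the distal exon (b) and from the 34 bp exon to the distal exon (c). A longer exon of 242 bp is not drawn. It spans the 82 bp exon, the intron beside it and part of the 34 bp exon, and ends at the same base as the 82 bp exon. The lower panel plots the reads of c as a percent of a plus c in each library (points, coloured lines for exact 95% intervals). Black bars give the mean and SD of 3 libraries. The snapc3 and tnpo3 mutant libraries lie between 17.5% and 32.4%, above all control libraries. How many other exons separate in this measure was not counted.

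The smn1 exons were skipped rarely, and none was called in any mutant. The gene (ENSDARG00000018494) lies on the minus strand of chromosome 5. Its exon of 72 bp at chr5:45423503-45423574 had 12, 0 and 3 skipping reads beside 209, 171 and 245 inclusion reads in snapc3 mutants, and 2, 6 and 0 skipping reads beside 178, 200 and 138 inclusion reads in tnpo3 mutants. The controls had 0 skipping reads beside 179, 233 and 169 inclusion reads. Skipping was thus 10.3%, 0% and 2.39% in snapc3 mutants and 2.2%, 5.66% and 0% in tnpo3 mutants, against 0% in controls, where the counts of 0 allow up to 3.24%, 2.51% and 3.43%. In each mutant 1 library had no skipping read, so the groups overlapped.

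The mean difference in inclusion of the 72 bp exon was -4.23 points (SE 3.11) in snapc3 mutants and -2.62 points (SE 1.65) in tnpo3 mutants. With no control skipping read, this exon is listed only through reads of the mutants. Its values are therefore a description, and no p is given. Without the snapc3 mutant library in position 1, which holds 12 of the 15 skipping reads, the snapc3 difference was -1.20 points. That library also had the most junction reads in the snapc3 table, 15025631 against 13039814 and 13433764 in the other snapc3 mutant libraries, and the most exons with any skipping read, 11748 against 9675 and 10205. The control libraries had 6839 to 7749 such exons in the same table. The part of these library differences in the smn1 reads was not tested.

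Skipping reads in mutants alone were common in these tables. Of the 23156 exons listed for snapc3, 44.9% had no control skipping read, and 2.93% of those had at least the 15 mutant reads of smn1. Of the 28035 listed for tnpo3, 53.8% had no control skipping read, and 13.4% of those had at least the 8 mutant reads of smn1. The exons of 75 bp (chr5:45419775-45419849, listed for snapc3 alone) and 120 bp (chr5:45423296-45423415, listed for lsm8 alone) had 1 skipping read in 3 snapc3 mutant libraries and 2 in 3 lsm8 mutant libraries, against 0 in controls. Neither was called, and no p is given, since both are listed only through reads of the mutants.

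The exons differ in reading frame by gene. All 3 smn1 exons, of 72, 75 and 120 bp, are multiples of 3 long, and none of the 5 exons of gemin5 and gemin8 is, whereas 45.4% of the 37368 distinct listed exons are. The combined length of the gemin8 exons left out together, 476 bp, is not a multiple of 3 either. Whether these exons are coding in the transcripts concerned was not determined here.

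Reads over the junctions of gemin5 and gemin8 gave no call on the level of either gene in any mutant. Levels are the inclusion and skipping reads of the entries that all 3 tables share, given as RPM of all such junction reads after scaling by the trimmed mean of M values, and they count spliced reads at these exons and not whole transcripts. In the fit over 7443 genes, 7.55% were called in snapc3 mutants, 12.9% in lsm8 mutants and 5.2% in tnpo3 mutants, in either direction at a limma adjusted p below 0.05. For gemin5 the level was 14.4, 9.60 and 10.2 RPM in snapc3 mutants, 12.01, 12.3 and 11.2 in lsm8 mutants and 12.9, 9.76 and 11.3 in tnpo3 mutants, against 14.4, 13.1 and 13.4 in controls. All lsm8 and all tnpo3 mutant libraries lay below all control libraries, as did 16.6% and 12.3% of genes, and the snapc3 mutants overlapped the controls. This level rests on 1 shared entry, that of the skipped exon of 137 bp. A transcript that keeps the exon has 2 junctions to count there, against 1 where it is skipped, so skipping by itself lowers the sum. The level was not corrected for this. The log2 fold change of gemin5 was -0.27 in snapc3 mutants (SE 0.19, limma adjusted p = 0.449), -0.20 in lsm8 mutants and -0.27 in tnpo3 mutants (SE 0.19 for each), beside a median near 0 over all genes. Leaving out 1 library gave -0.45 to -0.16 in snapc3, -0.22 to -0.16 in lsm8 and -0.37 to -0.17 in tnpo3 mutants.

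For gemin8 the level was 52.7, 46.8 and 46.9 RPM in snapc3 mutants, 40.6, 51.6 and 51.0 in lsm8 mutants and 40.9, 39.6 and 39.2 in tnpo3 mutants, against 40.3, 41.8 and 40.8 in controls. The snapc3 mutant libraries lay above all control libraries, as did 13.2% of genes, and the other groups overlapped the controls. A transcript that leaves out both gemin8 exons has fewer junctions to count than one that keeps them, so skipping by itself lowers this sum too. The gemin8 level was not corrected for this. The log2 fold change was 0.25 in snapc3 mutants (SE 0.12), 0.21 in lsm8 mutants (SE 0.12, limma adjusted p = 0.290) and -0.04 in tnpo3 mutants (SE 0.12). With plain library totals in place of the trimmed scaling the lsm8 value became 0.38 and was called (limma adjusted p = 0.0447), but that scaling moved the median of all genes by 0.17. Between mutants the log2 difference of gemin8 was -0.29 in tnpo3 against snapc3 mutants, -0.25 in tnpo3 against lsm8 mutants and -0.04 in lsm8 against snapc3 mutants (SE 0.12 for each), and none was called, where 13.2%, 17.1% and 18.9% of genes were. The same differences of gemin5 were 0.00, -0.07 and 0.08 (SE 0.19 for each), also without a call. The sign of all 3 gemin5 differences, and of the one between lsm8 and snapc3 mutants for gemin8, turned under other settings, so no direction is read from them.

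No smn1 entry stands in all 3 tables, so its level comes from each mutant's own table and is compared only there. Its log2 fold change was 0.05 in snapc3 mutants (SE 0.13, limma adjusted p = 0.855), 0.15 in lsm8 mutants (SE 0.19, adjusted p = 0.657) and -0.13 in tnpo3 mutants (SE 0.19, adjusted p = 0.751). Reads at the 72 bp exon averaged 26.3 ± 4.56 RPM in snapc3 mutants and 20.9 ± 3.68 in tnpo3 mutants, against 22.5 ± 3.53 in controls (SD, n = 3 each). Reads at the 120 bp exon averaged 26.0 ± 4.30 RPM in lsm8 mutants and 23.2 ± 3.90 in controls. These groups overlapped in each comparison.

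**Figure D3:**
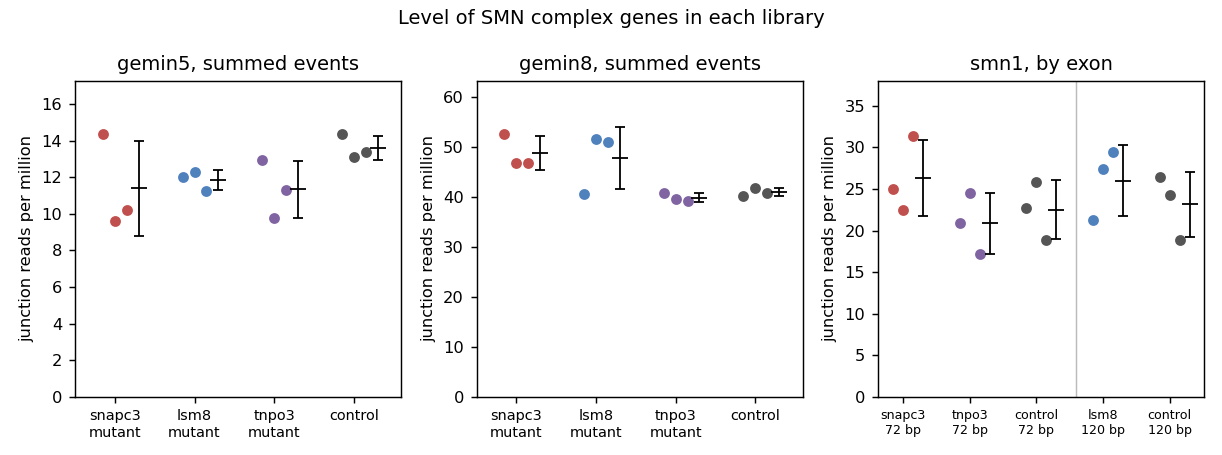
Level of gemin5, gemin8 and smn1 in RPM of junction reads in each library (points), with bars for the mean and SD of 3 libraries; the smn1 panel gives its 72 bp exon in snapc3 mutants, tnpo3 mutants and controls and, right of the line, its 120 bp exon in lsm8 mutants and controls. The gemin5 points of lsm8 and tnpo3 mutants lie below the control points of 13.1 to 14.4, and the gemin8 points of snapc3 mutants, at 46.8 or more, lie above the control points. The gemin5 and gemin8 sums are lowered by exon skipping itself, which was not corrected for.

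The genes whose levels followed gemin5 most closely over the 12 libraries, by Pearson correlation of log2 RPM among 6509 other genes, were exoc2 (0.86), ap3m1 (0.84), gtf3aa (0.84), abcc12 (0.83) and trim25 (0.83). Those closest to gemin8 were poldip2 (0.89), emc7 (0.88), slc8a1a (0.87), ddr2l (0.87) and stx4 (0.86). The libraries share groups and depth, and these values rank genes only.

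Among the other SMN complex subunits, the 2 of 7 listed genes with shared entries were not called in any mutant. The log2 fold change of gemin2, whose product binds the Sm ring, was -0.04 in snapc3, 0.23 in lsm8 and 0.27 in tnpo3 mutants (SE 0.14 for each, limma adjusted p from 0.314 to 0.903). For ddx20, the Gemin3 helicase, it was -0.14, 0.37 and 0.34 in the same order (SE 0.15 for each, limma adjusted p from 0.132 to 0.663), and lsm8 mutants were higher than snapc3 mutants by 0.51 (SE 0.15, limma adjusted p = 0.0313), a call lost with 1 event per gene, without the lsm8 mutant library in position 1 or 2 and without the snapc3 mutant library in position 2 or 3 (0.40 to 0.54). The gemin2 exon of 59 bp had 14, 0 and 0 skipping reads in snapc3 mutants and 0 in controls, all 14 of them in the same library as the 12 smn1 reads. The ddx20 exon of 169 bp had 9, 0 and 7 skipping reads beside 160, 250 and 173 inclusion reads in tnpo3 mutants, against 0, 0 and 1 beside 118, 186 and 157 in controls. Of the exons of all 39 listed symbols of the pathway none was called, among 35 tested in snapc3, 30 in lsm8 and 35 in tnpo3 mutants. Over all exons tested, calls in either direction numbered 154 of 22314 in snapc3, 260 of 22499 in lsm8 and 591 of 27050 in tnpo3 mutants. At such shares a list of this size may hold no call, so no difference from other exons is read from it.

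Of these 39, which leave out smn1, gemin5 and gemin8, 11 had shared entries, of which 2 rose in snapc3 mutants and 3 in lsm8 mutants, none rose in tnpo3 mutants and none fell in any mutant. Over all 7443 genes 3.32%, 5.04% and 1.75% rose in snapc3, lsm8 and tnpo3 mutants, and 4.23%, 7.83% and 3.45% fell. In counts these are 247 higher and 315 lower in snapc3 mutants and 375 and 583 in lsm8 mutants. Plain library totals, which moved the median of all genes by -0.14 in snapc3 and 0.17 in lsm8 mutants, gave 118 higher and 547 lower in snapc3 and 995 and 396 in lsm8 mutants. With them the 11 pathway genes kept 2 calls in snapc3 mutants and had 5 in lsm8 mutants, where ddx20 (0.54, limma adjusted p = 0.0195) and prmt5 (0.55, adjusted p = 0.0179) came in. In tnpo3 mutants the smallest of their 11 adjusted p-values was 0.187, for riok1, 2 of the 11 had an unadjusted p below 0.05, and limma on the tnpo3 table alone called 0 of 18. On the snapc3 table alone 5 of 17 rose and none fell, and on the lsm8 table alone 6 of 18 rose and 1 fell, riok1 (-0.54, SE 0.13, limma adjusted p = 0.0248). Over all genes tested this way 2.42%, 4.52% and 1.06% rose in snapc3, lsm8 and tnpo3 mutants, and 3.21%, 7.08% and 2.13% fell. The lists were chosen with earlier results of these data in view, so the pathway counts are a description. Reads of snrpd2, which encodes an Sm protein that the SMN complex assembles, were at 364, 349 and 334 RPM in snapc3 mutants, 585, 646 and 644 in lsm8 mutants and 170, 198 and 171 in tnpo3 mutants, against 181, 162 and 152 in controls. Its log2 fold change was 1.08 in snapc3 mutants (SE 0.10), 1.92 in lsm8 mutants (SE 0.10) and 0.12 in tnpo3 mutants (SE 0.10, limma adjusted p = 0.522). The authors' deposited tables list snrpd2 as higher in snapc3 and lsm8 mutants, so no p is given for those. It was the 1 Sm protein gene of 8 with shared entries.

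The authors' deposited tables list 4 of the 8 Sm protein genes as higher in snapc3 mutants, 7 in lsm8 mutants and none in tnpo3 mutants. In the authors' deposited table for lsm8 the log2 fold change was 2.45 for snrpd3, 1.98 for snrpe, 1.87 for snrpd2 and 1.86 for SNRPG. In the authors' deposited table for snapc3 it was 1.56 for snrpd3, 1.29 for snrpe, 1.17 for snrpf and 1.11 for snrpd2. A gene absent from these tables cannot be read as unchanged.

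In the methylation list, prmt5 (the methyltransferase of Sm proteins) had log2 fold changes of -0.26, 0.38 and 0.04 in snapc3, lsm8 and tnpo3 mutants and riok1 (a PRMT5 partner) -0.29, -0.52 and -0.42, with no call. Reads of prmt5 were higher in lsm8 than in snapc3 mutants (log2 difference 0.63, SE 0.14, limma adjusted p = 0.00805). In the list of snRNA export, cap methylation and import, xpo1b, tgs1 and kpnb1 had shared entries and none was called, although xpo1b was higher in lsm8 than in snapc3 mutants (0.56, SE 0.15, limma adjusted p = 0.0214), a call lost without the lsm8 mutant library in position 2 or 3 or the snapc3 mutant library in position 3 (0.35 to 0.56). In the Cajal body list, uspl1, which encodes a SUMO protease of that body, rose by 1.50 in snapc3 mutants and 3.34 in lsm8 mutants (SE 0.15 for each). In tnpo3 mutants its log2 fold change was 0.005 (SE 0.15, limma adjusted p = 0.992). The authors' deposited tables also list uspl1 as higher in snapc3 and lsm8 mutants, so no p is given for those. In lsm8 mutants nolc1, a nucleolar and Cajal body protein gene, rose by 0.75 (SE 0.22, limma adjusted p = 0.0351), a call lost without the lsm8 mutant library in position 1 or 3 or the control library in position 2 or 3 (0.59 to 0.71). The list's usp4 was not called in any mutant.

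**Figure D4:**
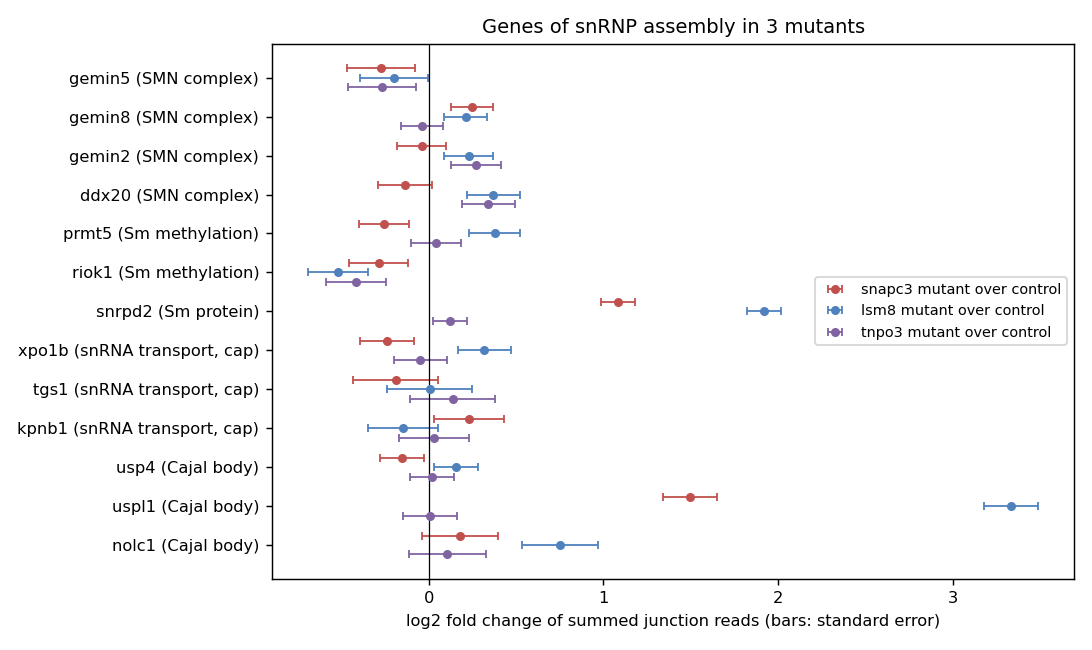
Log2 fold change of summed junction reads over control, with standard errors, for gemin5, gemin8 and the 11 other pathway genes with shared entries, in snapc3, lsm8 and tnpo3 mutants (3 libraries each). The SMN complex genes lie between -0.27 and 0.37, whereas snrpd2 and uspl1 lie at 1.08 or more in snapc3 and lsm8 mutants.

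The libraries as a whole differed in depth and in skipping. Shared junction reads per library ranged from 5578850 to 7096126 in lsm8 mutants, from 7714155 to 9692025 in the other mutants and from 8181111 to 9253592 in controls. Exons with any skipping read numbered 9675 to 11748 in snapc3, 10032 to 11670 in lsm8 and 13693 to 13902 in tnpo3 mutant libraries, against 6839 to 7860 in control libraries over the same tables. In the authors' deposited tables snapc3 was at -1.39 in snapc3 mutants (adjusted p = 0.0298), tnpo3 at -1.51 in tnpo3 mutants (adjusted p = 0.0104) and lsm8 at 2.87 in lsm8 and 2.19 in snapc3 mutants, and since the kind of mutation is not given these levels do not check the labels. Of 45 marker genes of embryonic tissues 32 appear in the tables, from every tissue listed but blood (0 of 3).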

How the data were processed

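Total RNA of whole embryos was sequenced in 12 libraries. The submitters' processing notes name build Zv9 and, as tools of the authors, limma 3.26.3, featureCounts 1.4.5-p1, Bowtie2 2.2.3 and TopHat2 2.0.13. What made the splicing tables is not stated in the labels. Those deposited tables hold inclusion and skipping junction read counts, 3 comma-joined values per group and event, with form lengths, a p-value and an FDR. The deposited gene tables hold each gene's log2 fold change, a moderated statistic (a score) and p-values from the authors' comparisons. The standard error beside such a value is the log2 fold change divided by that score.

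Inclusion was tested in R 4.3.3 with limma 3.58.1 (trend, robust) as the log2 ratio of inclusion to skipping counts, each divided by its form length, pseudocount 0.5, over each whole table. Gene levels are counts summed over the 13347 events shared by the 3 tables (7663 genes), tested with limma on log2 CPM (prior count 2) in all 12 libraries, for genes averaging at least 10 reads. The design had named a count model. The joined cells were split into whole-number counts, and limma was used in place of that model. P-values were adjusted by the Benjamini-Hochberg method over all features tested. Summed reads count a junction once for each event that holds it. Both fits were tested on simulated data with larger changes than those of smn1, gemin5 and gemin8. Changes of the size seen in these genes were not simulated. Standard errors of differences in inclusion come from the group SDs.

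Libraries are ordered within a cell, and these positions were not matched to replicate numbers. Named genes were smn1, gemin5 and gemin8, up to 4 members of each pathway list by smallest adjusted p, and the 5 genes most alike. The members and lists were chosen with earlier results of these data known. Intervals are exact Clopper-Pearson intervals from SciPy 1.17.1. No sequence is printed, since no genome of the build used was at hand.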

Additional observations from a re-analysis of the deposited data

How the results depend on the processing

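No paired analysis was possible because the order of libraries within the tables is not matched to replicate numbers. The planned count models were not run, nor were fits of intron retention, where these genes have no entry. Of the settings tried on single values of smn1, gemin5 and gemin8, 293 kept direction and side of the threshold, 12 lost a call and 2 gained one, all named in the report except the gain for gemin8 in tnpo3 against lsm8 mutants with library totals (-0.42, limma adjusted p = 0.0303). The sign turned in 11 of the settings, all for log2 level differences between mutants that were not called under either setting. The cause was not tested. For gemin8 in lsm8 against snapc3 mutants it became 0.27 with library totals and 0.0065 with 1 event per gene, and ran from -0.10 to 0.08 without 1 library (0.075 and 0.017 where it turned). For gemin5 in tnpo3 against snapc3 mutants it became -0.0014 with median-of-ratios size factors and -0.0074 with voom, and ran from -0.11 to 0.18 without 1 library (-0.10, -0.11 and -0.061 where it turned). For gemin5 it ran from -0.036 to 0.25 in lsm8 against snapc3 mutants and from -0.18 to 0.030 in tnpo3 against lsm8 mutants without 1 library. The length-free share of gemin8, chosen after seeing the data, moved its 3 differences to -24.6, -6.05 and -20.1 points (sign turned) in snapc3, lsm8 and tnpo3 mutants.

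Counts of called genes depended more on the setting; the cause was not tested. With a log2 fold change of at least 1 they were 206 (snapc3), 270 (lsm8), 115 (tnpo3), 331 (lsm8 against snapc3), 239 (tnpo3 against snapc3) and 281 (tnpo3 against lsm8), against 562, 958, 387, 1407, 981 and 1272. With only the 2 groups compared they were 371 in snapc3 and 213 in tnpo3 mutants, and with library totals 2655 in lsm8 against snapc3 mutants. Leaving out 1 library gave 376 to 609 (snapc3), 596 to 967 (lsm8), 218 to 364 (tnpo3), 837 to 1077 (lsm8 against snapc3), 558 to 776 (tnpo3 against snapc3) and 863 to 1023 (tnpo3 against lsm8). Called exons, 154, 260 and 591 in snapc3, lsm8 and tnpo3 mutants, became 584, 968 and 1693 with no minimum difference, 316 and 474 (snapc3, lsm8) with the deposited FDR, and 126 to 242, 148 to 417 and 437 to 669 without 1 library. At an adjusted p below 0.01 the authors' deposited tables keep 85, 233 and 0 genes. Depth limits all these exons: control skipping summed to 8 reads for the gemin8 exon of 82 bp and 2 or fewer for each other exon.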
